A study of Homo sapiens with 8 samples.

Results

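Mitochondrial ribosomal protein genes were examined in ribosome profiling data of G401 cells, which come from a rhabdoid kidney tumor and have lost SMARCB1. The genes were chosen by symbol, as those beginning with MRPL or MRPS followed by a digit, plus DAP3. This rule found 79 genes among the 20719 gene IDs counted, 49 named for the large subunit and 30 for the small subunit. They lay on 21 chromosomes. The cells carried a Tet-On construct for either SMARCB1 or GFP, and each line received 0.1 µg/ml doxycycline (Dox) or an equal amount of the solvent dimethylsulfoxide (DMSO) for 12 h. The groups are called SMARCB1 Dox, SMARCB1 DMSO, GFP Dox and GFP DMSO, each with 2 libraries made from 6 pooled plates per condition. GFP Dox holds the drug and induced GFP, without re-expression of SMARCB1. The sources used here do not say whether the replicates came from separate cultures, so the p-values measure the spread between these libraries, which may be technical.

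The mitochondrial ribosome translates the few proteins encoded by mitochondrial DNA, all of them subunits of the respiratory chain and ATP synthase. Its own proteins are encoded in the nucleus, translated by cytosolic ribosomes and imported, and their footprints in these libraries come from that cytosolic step. Doxycycline is a tetracycline, a class that binds the small subunit of bacterial ribosomes and can also block translation in mitochondria.

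Ribosome footprints, the fragments protected by ribosomes captured with RiboLace, were counted on coding sequences and are given here as CPM (counts divided by the total on genes of each library and scaled to 1000000). Totals on genes ranged from 5924443 to 14000039 per library. Footprints on SMARCB1 itself were counted only in SMARCB1 Dox, 2553 in replicate 1 and 1750 in replicate 2, with 0 in the other 6 libraries. VIM and KRT8, markers of these tumor cells, were at no less than 1057 and 1266 CPM in every library, whereas the leukocyte markers PTPRC, CD3E and CD14 had 0 counts throughout. Reads with several alignments made up 56.4% of all reads in GFP Dox replicate 1 and 25.6% to 39.7% in the other libraries. The limit that a count of 0 allows covers counting error only, since no molecular identifiers are described, whereas SEs and 95% intervals come from the edgeR fit and include the spread between replicate libraries.

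Promoters are shown first, because letters near the transcription start were the sequence feature found more often in these genes than over all genes with a promoter. RefSeq promoters, from 250 bases before to 50 bases after the start, were matched by symbol for 70 of the 79 genes. The ETS family letters CCGGAAG, searched on both strands, occurred in 29 of these 70 promoters (41.4%) and in 14.4% of all 15341 promoters. These 15341 were matched to the symbols of all gene IDs counted. They include the 70 and were not limited to genes with footprints, so a background of expressed genes was not tested. The letters of the YY1 motif, spelled by the first run of capitals in the MRPL52 promoter printed here and searched on both strands, occurred in 13 (18.6%), against 1.98% of all promoters. The ends of these 2 strings share AAG, so that 1 stretch could count for both. At least 1 of them was present in 38 promoters (54.3%), compared with 15.9% of all, and both were present in MRPL38, MRPL52, MRPS10 and MRPS18A. The SP1 letters GGGCGGG were found in 48.6% of the 70 promoters and 45.03% of all. The consensus palindrome of NRF1, a regulator of nuclear genes for mitochondrial proteins, was in 1 promoter (1.43%) and in 1.72% of all. These matches describe letters and not binding, and no peak or binding data were analysed here.

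The examples are MRPL51 and MRPL52, which had the highest footprint levels of the large subunit, MRPS21, second in the small subunit, MRPS18A, which holds both strings, and MRPS6, first in the small subunit and without either. Each is written 5′ to 3′ on the strand of the gene, and capitals mark CCGGAAG, the YY1 letters or their reverse complements.
MRPL51, GRCh38.p14 chr12:6493213-6493512, minus strand: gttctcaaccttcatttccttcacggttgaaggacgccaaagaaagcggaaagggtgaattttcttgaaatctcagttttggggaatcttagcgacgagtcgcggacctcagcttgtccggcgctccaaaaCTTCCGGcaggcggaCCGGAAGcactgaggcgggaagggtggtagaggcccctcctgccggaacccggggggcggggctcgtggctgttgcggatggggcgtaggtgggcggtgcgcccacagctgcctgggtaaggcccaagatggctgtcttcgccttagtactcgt
MRPL52, GRCh38.p14 chr14:22829637-22829936, plus strand: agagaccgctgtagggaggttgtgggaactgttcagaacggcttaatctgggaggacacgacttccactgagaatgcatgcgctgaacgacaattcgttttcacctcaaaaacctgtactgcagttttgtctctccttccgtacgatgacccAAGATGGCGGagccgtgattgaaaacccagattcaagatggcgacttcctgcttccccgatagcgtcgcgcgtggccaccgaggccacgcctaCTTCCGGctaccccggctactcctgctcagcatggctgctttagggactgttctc
MRPS21, GRCh38.p14 chr1:150293611-150293910, plus strand: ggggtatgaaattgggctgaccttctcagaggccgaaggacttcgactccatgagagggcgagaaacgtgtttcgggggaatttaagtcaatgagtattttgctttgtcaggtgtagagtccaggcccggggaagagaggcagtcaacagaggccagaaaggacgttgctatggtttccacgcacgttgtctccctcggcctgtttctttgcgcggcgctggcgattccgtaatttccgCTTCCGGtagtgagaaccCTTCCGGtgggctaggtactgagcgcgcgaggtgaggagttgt
MRPS18A, GRCh38.p14 chr6:43687742-43688041, minus strand: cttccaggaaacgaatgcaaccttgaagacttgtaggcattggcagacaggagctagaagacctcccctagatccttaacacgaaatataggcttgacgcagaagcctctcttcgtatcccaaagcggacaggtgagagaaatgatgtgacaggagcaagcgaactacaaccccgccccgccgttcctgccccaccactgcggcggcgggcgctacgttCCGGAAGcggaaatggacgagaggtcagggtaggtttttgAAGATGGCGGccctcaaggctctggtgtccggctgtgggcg
MRPS6, GRCh38.p14 chr21:34073328-34073627, plus strand: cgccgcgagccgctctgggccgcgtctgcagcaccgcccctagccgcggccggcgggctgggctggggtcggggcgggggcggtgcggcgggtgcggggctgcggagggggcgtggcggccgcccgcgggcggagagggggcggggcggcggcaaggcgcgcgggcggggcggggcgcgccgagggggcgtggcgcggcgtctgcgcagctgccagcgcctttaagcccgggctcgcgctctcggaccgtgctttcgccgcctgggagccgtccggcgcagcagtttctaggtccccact

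The YY1 letters sat close to the start, in these genes much as in all promoters. Of the 13 matches, 11 (84.6%) lay within 50 bases of it and 10 lay after it, with a median position of base 10. Of the 39 ETS matches, 27 (69.2%) lay within 50 bases and the median position was -22, that is, before the start. Over all promoters, 80.7% of YY1 and 53.9% of ETS matches lay within 50 bases, with median positions of 14 and -45. Per kilobase of coding sequence, the median level was 88.2 for the 28 tested genes with ETS letters, 67.0 for the 13 with YY1 letters and 122 for the 31 with neither. As medians of the log2 fold change in SMARCB1 Dox against SMARCB1 DMSO, they had -0.17, -0.16 and -0.02 in the same order, values that were not tested against each other.

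Mitoribosomal genes took a small and even share of footprints. All 79 together held between 0.562% and 0.674% of the counts on genes, with a median of 0.584%. The highest library was 1.20 times the lowest. In comparison, the 13 proteins encoded by mitochondrial DNA held between 0.318% and 0.802%, a 2.53-fold range. MT-ND6 alone made up 66.7% to 89.4% of that share, and without it the range was 2.59-fold.

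Sums over the large subunit genes were 3134 and 3809 CPM in the SMARCB1 DMSO libraries and 3555 and 3267 CPM in SMARCB1 Dox. In the GFP line they were 3534 and 3221 CPM under DMSO and 3458 and 3205 CPM under Dox. The 4 groups overlapped in the large subunit, with means of 3471 ± 477, 3411 ± 204, 3378 ± 222 and 3332 ± 179 CPM in this order (SD, n = 2). The small subunit sums were 2722 ± 290 CPM in SMARCB1 DMSO, 2579 ± 149 in SMARCB1 Dox, 2610 ± 221 in GFP DMSO and 2448 ± 40.9 in GFP Dox (SD, n = 2). The ratio of large to small sums, which does not depend on how libraries are scaled, was 1.24 and 1.30 in SMARCB1 DMSO and 1.32 and 1.32 in SMARCB1 Dox. In the GFP line it was 1.28 and 1.31 under DMSO and 1.40 and 1.32 under Dox. The Dox libraries thus had the higher ratio in each line, by a margin of the size of the spread between replicates. The highest value came from GFP Dox replicate 1, the library with the most reads of several alignments. Sums weigh highly counted genes most, such as MRPL51, at 494 CPM in that library and 293 CPM in GFP Dox replicate 2. Gene by gene, the median log2 fold change under Dox in the GFP line was -0.01 for the large and 0.02 for the small subunit. In the SMARCB1 line these medians were -0.06 and -0.19. With 2 libraries in each group, an exact permutation test of a single sum or ratio cannot reach a p below 0.05, and none was run.

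**Figure D1:**
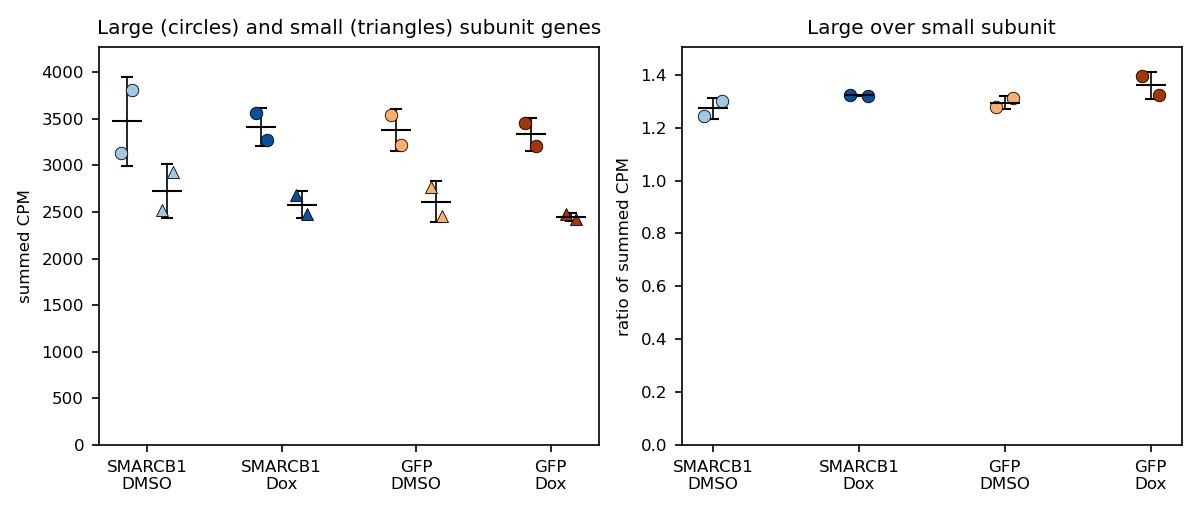
Left, summed CPM of the large subunit genes (circles) and small subunit genes (triangles) in each library of the 4 groups; right, the ratio of these sums. Horizontal bars are group means and error bars the SD of 2 libraries. The sums of the groups overlap for the large subunit, and the ratios lie between 1.24 and 1.40, with the Dox libraries above the DMSO libraries of the same line.

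Although both subunits are assembled from single copies of most proteins, footprint levels differed widely between the genes. To compare genes, counts were divided by coding length and scaled to the same total in each library as CPM. On this scale the 77 genes that passed the filter on low counts had a median of 104, compared with 22.9 for all tested genes. The 77 genes are also shorter, with a median coding length of 675 bases compared with 1574 bases for all tested genes. The part of length in these levels was not tested. The medians were 107 for 48 large and 103 for 29 small subunit genes. The 90th percentile was 14.8 times the 10th among these 77 genes, and 83.2 times among all tested genes. By the uniform naming of ribosomal proteins, which marks proteins shared with bacteria, the median was 122 for 29 large subunit genes with a bacterial counterpart and 93.9 for 19 without. In the small subunit it was 103 for 15 with a counterpart and 100.1 for 14 without.

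MRPL51 and MRPL52, components particular to mitochondrial ribosomes, led the large subunit with 1183 ± 240 and 932 ± 212 per kilobase (SD, n = 8). MRPL50 followed at 352 ± 125. The first and second differed by about the spread over libraries, and both lay beyond the spread of the third. MRPS6, the counterpart of bacterial S6, led the small subunit with 1075 ± 110, ahead of MRPS21 at 459 ± 51.3 and MRPS23 at 436 ± 58.1, which lay within their spread of each other. At the other end, MRPL45 stood at 1.47 ± 0.91 and MRPL2 at 7.29 ± 2.91 in the large subunit, and MRPS36 at 4.70 ± 3.13 and MRPS12 at 7.26 ± 3.53 in the small subunit (SD, n = 8), apart from MRPL30 and MRPS17, which had no counts. In CPM, MRPL51 ranged from 278 to 494 and MRPS6 from 254 to 358 over the 8 libraries.

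**Figure D2:**
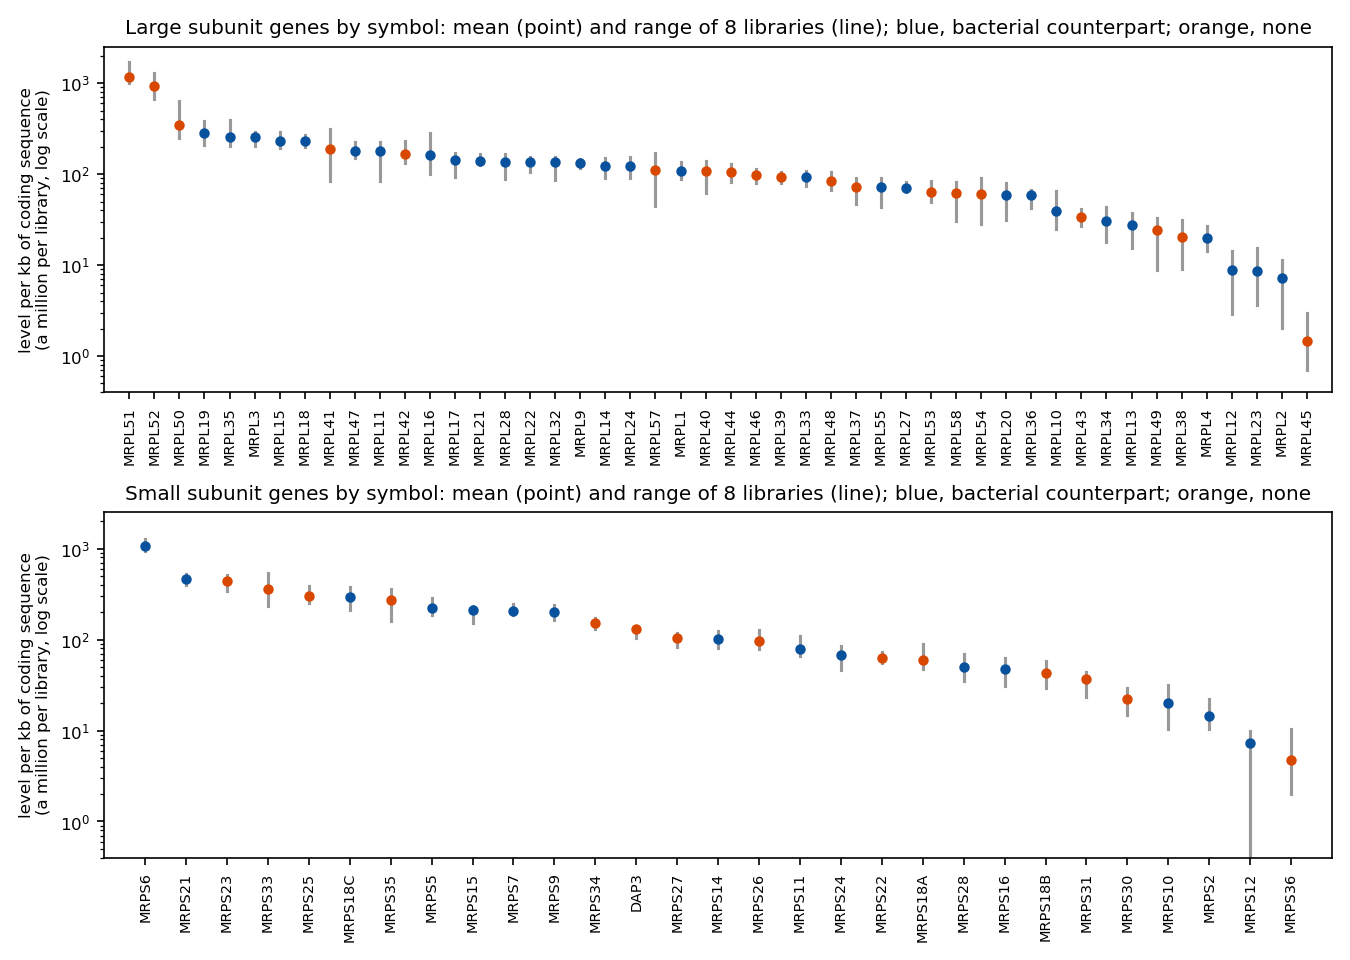
Footprint level per kilobase of coding sequence (scaled to the total of CPM in each library, log axis) for the 77 tested genes, ordered by mean within each subunit. Points are means of 8 libraries, lines run from the lowest to the highest library, and colour marks a bacterial counterpart. MRPL51, MRPL52 and MRPS6 stand at the top, and MRPL45 and MRPS36 are the lowest. The line of MRPS12, at 0 in 1 library, is drawn to the lower edge of the axis.

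Genes with defined roles spread over this range. DAP3, a GTP-binding protein of the small subunit named for its part in cell death, stood at 132 ± 12.2 per kilobase (SD, n = 8). MRPS27, a pentatricopeptide repeat protein, stood at 104 ± 11.8. The stalk that recruits translation factors rests on MRPL10, at 39.3 ± 12.6, and is formed by MRPL12, at 8.76 ± 3.48. MRPL58, which can release peptides from stalled ribosomes, was at 62.1 ± 15.1, and MRPL47 and MRPL55 were at 181 ± 24.5 and 71.4 ± 17.1. The 3 S18-related proteins, of which the uniform naming counts MRPS18C alone as the bacterial counterpart, differed, with MRPS18C at 296 ± 54.6, MRPS18A at 59.5 ± 13.3 and MRPS18B at 42.9 ± 7.84. MRPS18A and MRPS30 are named for the small subunit but lie in the large subunit of solved structures.

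Several genes at the bottom of the order share coding sequence with another gene. MRPL30 and MRPS17 had 0 counts in all 8 libraries, which for MRPL30 allows up to 3 counts in each. In GENCODE annotation 44, readthrough genes on the same strand cover 95.3% of the MRPL30 coding bases and 100% of those of MRPS17, and a read on shared bases is set aside as ambiguous by the counting mode used. The same overlap was 96.0% for MRPL12, which had 9 to 67 counts per library, and 60.6% for MRPL2, with 11 to 99 counts. It was 33.3% for MRPS28, 30.9% for MRPS24 and 4.37% for MRPL33. Unshared coding stretches of 24 bases were left in MRPL12 and MRPL30, printed 5′ to 3′ to show how little of each was unshared.
MRPL12, hg38 chr17:81707214-81707237, plus strand: gtgggcggcaccgtggttctggag
MRPL30, hg38 chr2:99194898-99194921, plus strand: gtatgcaattattttaatcatctt

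Copied sequence was examined in the same way. A window of 28 bases, about the length of a footprint, was slid along each coding sequence and searched for exact copies elsewhere in hg38. On the primary chromosomes 39 of the 79 genes had no copied window and 12 had over 20% of windows copied. MRPS36, since described as a subunit of the oxoglutarate dehydrogenase complex, had 51.2% of windows copied and 3 to 25 counts. MRPL45, which anchors the ribosome to the inner membrane, had 46.2% copied and 3 to 28 counts. Including the 430 other sequences of hg38, such as alternate haplotypes, these shares were 95.3% and 96.6%, and MRPL23 and MRPS18B came to 96.3% and 100%. Yet MRPS18B had 105 to 377 counts, and the set of sequences the authors aligned to is not given in the sources used here. MRPS18C, with 48.9% of windows copied, was among the highest small subunit genes. MRPS12, a protein of the decoding center, had no overlap and no copied window but only 0 to 45 counts, with 0 in GFP Dox replicate 1. Apart from the 0 of MRPS17, the part of overlaps and copies in these low levels was not tested. Levels of MRPL2, MRPL12, MRPL23, MRPL30, MRPL45, MRPS17, MRPS18B and MRPS36 are therefore uncertain.

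The comparison of SMARCB1 Dox with SMARCB1 DMSO asks whether re-expression of SMARCB1, together with the drug, altered ribosome occupancy of these genes. None of the 77 tested genes passed an adjusted p of 0.05 with a fold change above 2 in edgeR's quasi-likelihood test, and the lowest adjusted p was 0.980. The background was 0.018% of all 11097 tested genes. At an unadjusted p under 0.05 there was 1 of 77, against 4.97% of all genes. DESeq2's Wald test also called 0, with 1 at an unadjusted p under 0.05. In this and the later comparisons the shares of all genes are those of edgeR. Shares of all genes by DESeq2 are not given here, so its counts have no background beside them. The median log2 fold change was -0.10 for the 77 genes and -0.02 for all genes. The large subunit median was -0.06 and that of the small subunit -0.19. Without SMARCB1 DMSO replicate 2 the median of the 77 genes was 0.13, and without replicate 1 it was -0.27. The fold changes were narrower than those of all genes, with an SD of 0.29 compared with 0.61, and ran from -0.72 for MRPL57 to 0.71 for MRPS36. For 55 of the 77 genes (71.4%) the 95% interval lay within 2-fold in either direction, compared with 54.9% of all genes.

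MRPL3, which reaches toward the peptidyl transferase center, had the smallest p of the genes that were lower. It stood at 263 and 286 CPM in SMARCB1 DMSO and at 206 and 201 CPM in SMARCB1 Dox, so the libraries did not overlap. Its log2 fold change was -0.54 ± 0.24 (SE; edgeR's quasi-likelihood test, adjusted p 0.980). In the GFP line its libraries overlapped, at 261 and 236 CPM under DMSO and 262 and 226 CPM under Dox. MRPL24 and MRPS25 came next among the lower genes, at -0.56 ± 0.27 and -0.47 ± 0.26 (SE). On the higher side, MRPL37, a protein without a bacterial counterpart, stood at 82.7 and 69.3 CPM in SMARCB1 DMSO and 106 and 120.4 CPM in SMARCB1 Dox. Its log2 fold change was 0.47 ± 0.22, and those of MRPL34 and MRPL23 were 0.53 ± 0.36 and 0.68 ± 0.52 (SE). MRPL23 stood at only 3.88 and 5.99 CPM in SMARCB1 DMSO and 5.79 and 12.0 CPM in SMARCB1 Dox. Its libraries overlapped, and the rise rested on SMARCB1 Dox replicate 2. On TMM-scaled CPM, 17 of the 77 genes were lower in both SMARCB1 Dox libraries than in both DMSO libraries, and 4 were higher. For all genes these shares were 18.3% and 17.3%.

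In the GFP line, doxycycline was given without SMARCB1 but with induction of GFP, and the drug and GFP cannot be told apart in GFP Dox against GFP DMSO. Again 0 of the 77 genes were called by edgeR, against a background of 0.0%, and 1 passed an unadjusted p under 0.05, against 2.16% of all genes. DESeq2's Wald test called 0 and gave 1 at an unadjusted p under 0.05. The median log2 fold change was 0.01, compared with 0.02 for all genes, and -0.01 and 0.02 for the large and small subunits. Values ran from -1.36 for MRPS12, the gene with a library at 0, to 0.94 for MRPL34. The gene with a p of 0.0220 was MRPL34, a small protein of the large subunit. MRPL34 stood at 7.50 and 10.6 CPM in GFP DMSO and 18.2 and 13.998 CPM in GFP Dox, a log2 fold change of 0.94 ± 0.36 (SE; edgeR's quasi-likelihood test, adjusted p 1.00). Of its coding bases 30.4% overlap ABHD8 on the opposite strand, and the strand option of the counting was not given, so reads of the 2 genes may not be separable there. MRPL50 and MRPL35 followed at 0.68 ± 0.40 and 0.52 ± 0.34, and both rested on GFP Dox replicate 1. MRPL50 was at 224 CPM in that library and 85.2 CPM in replicate 2, compared with 123 and 91.8 CPM under DMSO. Without GFP Dox replicate 1 their log2 fold changes were -0.38 and -0.20. Without GFP Dox replicate 2, MRPL50 was called at 1.28, the 1 gene called of these, against 1.27% of all genes tested in that fit.

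On the lower side of the GFP comparison MRPL11, MRPL32 and MRPS33 were at -0.55 ± 0.28, -0.39 ± 0.23 and -0.41 ± 0.28 (SE). Both Dox libraries lay above both DMSO libraries for 9 of the 77 genes and lower for 7, against 13.1% and 13.2% of all genes.

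**Figure D3:**
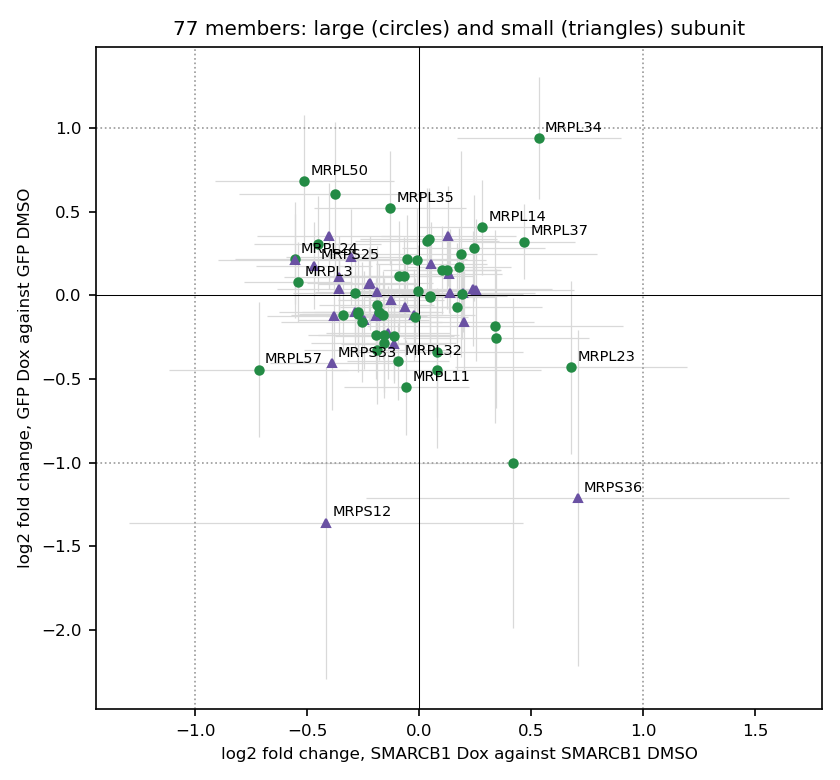
Log2 fold change of Dox against DMSO in the SMARCB1 line (horizontal axis) and the GFP line (vertical axis) for the 77 tested genes, circles for the large and triangles for the small subunit, with bars of 1 SE. Dotted lines mark 2-fold. Most genes lie near the center, MRPL34 is in the upper right, and the points with the widest bars, among them MRPS12 and MRPS36, are genes of few counts.

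MRPL34 and MRPL37 were the 2 genes whose Dox libraries were above the DMSO libraries in both lines after TMM scaling, against 2.34% of all genes. MRPL34 stood at 8.10 and 11.5 CPM in SMARCB1 DMSO and 17.0 and 13.99 CPM in SMARCB1 Dox, close to its values in the GFP line. MRPL37 was at 81.6 and 98.1 CPM in GFP DMSO and 95.2 and 116 CPM in GFP Dox, where the libraries overlap in raw CPM but not after TMM scaling. Averaged over the lines, the Dox effect was 0.74 ± 0.26 for MRPL34 and 0.39 ± 0.16 for MRPL37 (SE; both by edgeR's quasi-likelihood test, adjusted p 1.00). These were the 2 genes at an unadjusted p under 0.05 for the averaged effect, against 3.46% of all genes, and 0 were called, with a background of 0.0%. DESeq2's Wald test also called 0 and gave 2 at an unadjusted p under 0.05. MRPL14 was at 0.34 ± 0.20. MRPL32, whose Dox libraries were lower in both lines, was the 1 gene of that kind, against 2.36% of all genes. In the averaged effect MRPL57, MRPS33 and MRPL11 were the lowest by p, at -0.58 ± 0.28, -0.40 ± 0.20 and -0.30 ± 0.20 (SE). The interval of the averaged effect lay within 2-fold for 71 of the 77 genes (92.2%), compared with 77.4% of all genes.

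**Figure D4:**
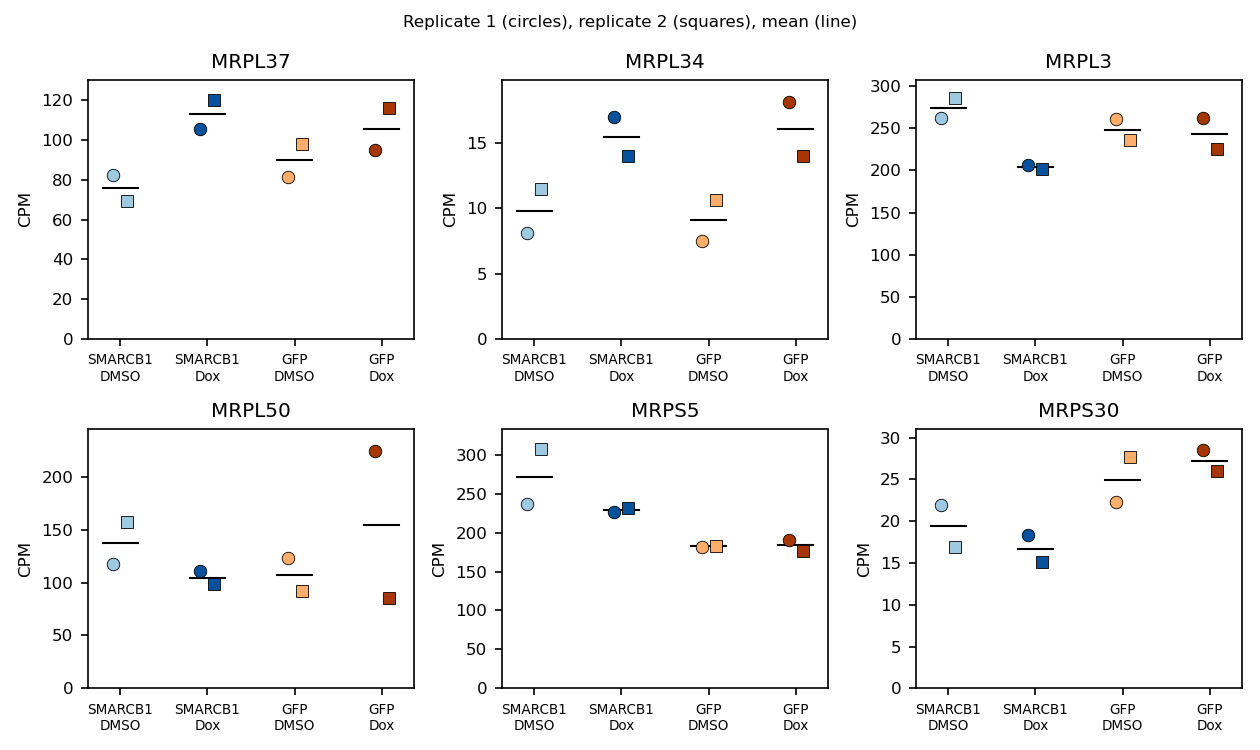
CPM of 6 mitoribosomal genes in each library, with circles for replicate 1, squares for replicate 2 and a line at the group mean. MRPL3 is lower in both SMARCB1 Dox libraries than in both SMARCB1 DMSO libraries, MRPL34 is higher under Dox in both lines, and the GFP Dox mean of MRPL50 lies between libraries at 224 and 85.2 CPM.

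The effect of Dox was compared between the lines as a difference of the log2 fold changes, SMARCB1 minus GFP. No gene was called (0 of 77, background 0.0%), and 0 passed an unadjusted p under 0.05, compared with 3.99% of all genes. DESeq2's Wald test called 0 and gave 1 at an unadjusted p under 0.05. The median difference was -0.06 for the 77 genes and -0.03 for all. MRPL50 had the smallest p, with a difference of -1.19 ± 0.56 (SE; edgeR's quasi-likelihood test, adjusted p 0.981), and it too rested on GFP Dox replicate 1. Without GFP Dox replicate 2 it was called at -1.80, the 1 gene called of these, against 0.905% of all genes tested in that fit. MRPL24 and MRPL48 were at -0.77 ± 0.38 and -0.76 ± 0.40. The positive differences with the smallest p were those of MRPL23, MRPS36 and MRPL11, at 1.11 ± 0.73, 1.92 ± 1.38 and 0.49 ± 0.40 (SE). For 30 of the 77 genes (39.0%) the interval lay within 2-fold, compared with 21.4% of all genes. For the rest of the 77 genes the interval reached beyond a 2-fold difference between the lines.

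The lines themselves differed at other genes. Under DMSO 4.97% of all tested genes were called between SMARCB1 and GFP cells, and under Dox 6.08%, but 0 of the 77 mitoribosomal genes were called in either comparison. By adjusted p alone, without the fold threshold, these shares were 5.29% and 6.55%, and again 0 of the 77 genes passed. At an unadjusted p under 0.05 there were 4 genes under DMSO and 1 under Dox by edgeR, against 13.9% and 18.7% of all genes by edgeR. DESeq2's Wald test called 0 and gave the same numbers of the 77 genes at an unadjusted p under 0.05. The SD of the log2 fold changes was 0.27 under DMSO and 0.38 under Dox, compared with 1.14 and 1.26 for all genes. The medians were 0.04 and 0.01.

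MRPS5, a core protein of the small subunit, was at 236 and 307 CPM in SMARCB1 DMSO and 182 and 183 CPM in GFP DMSO. Its log2 fold change was 0.65 ± 0.25 (SE; edgeR's quasi-likelihood test, adjusted p 0.196). MRPL41 and MRPL48 were at 0.84 ± 0.36 and 0.65 ± 0.28, and on the other side MRPL44, MRPS2 and MRPL17 were at -0.34 ± 0.23, -0.44 ± 0.34 and -0.33 ± 0.27 (SE). Without SMARCB1 DMSO replicate 1 the value of MRPL17 was 0.02. MRPS30 was at 18.3 and 15.2 CPM in SMARCB1 Dox and 28.6 and 26.0 CPM in GFP Dox. The log2 fold change of MRPS30 was -0.84 ± 0.29 (SE; edgeR's quasi-likelihood test, adjusted p 0.117). MRPL50 and MRPL3 followed at -0.76 ± 0.40 and -0.41 ± 0.24, whereas MRPL11, MRPL41 and MRPS33 were at 0.55 ± 0.28, 0.66 ± 0.36 and 0.45 ± 0.28 (SE). Without GFP Dox replicate 1 the value of MRPL50 was 0.30. Both SMARCB1 DMSO libraries were above both GFP DMSO libraries for 9 genes and below for 3, against 22.0% and 22.8% of all genes. Under Dox there were 11 higher and 10 lower, against 23.2% and 22.9%. Without GFP Dox replicate 2, 5 genes were called between the lines under Dox, namely MRPL11, MRPL16, MRPL50, MRPS12 and MRPS30, against 11.8% of all genes tested in that fit.

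Genes with the roles given above had no call in any of these comparisons. In the SMARCB1 line under Dox, DAP3 was at -0.19 ± 0.23, MRPS27 at -0.23 ± 0.23, MRPL10 at 0.24 ± 0.32 and MRPL58 at -0.19 ± 0.33 (log2 fold change and SE). MRPL47, MRPL55 and MRPS28 were at -0.19 ± 0.26, -0.26 ± 0.36 and 0.20 ± 0.31. The S18-related MRPS18A, MRPS18B and MRPS18C were at -0.55 ± 0.35, -0.41 ± 0.32 and -0.14 ± 0.28. MRPS18A and MRPS30, the pair that lies in the large subunit, had a median of -0.43. For genes of few counts the intervals were wide. The 95% interval ran from -1.11 to 1.48 for MRPL12, from -1.60 to 2.44 for MRPL45, from -2.30 to 1.46 for MRPS12 and from -1.32 to 2.73 for MRPS36.

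Replicate libraries differed with base composition and, in SMARCB1 DMSO, with coding length. The GC content of the coding sequences ran from 38.3% to 68.1%, with a median of 52.1%, as in all tested genes. The log2 difference between replicates 1 and 2 (TMM-scaled CPM plus 0.5) correlated with GC content across the 77 genes, with Pearson's r of -0.41 in GFP DMSO, -0.40 in GFP Dox, -0.39 in SMARCB1 DMSO and -0.24 in SMARCB1 Dox. Across 11096 tested genes r was -0.42, -0.25, -0.25 and -0.28. With log2 coding length, r across the 77 genes was 0.30 in SMARCB1 DMSO and between -0.10 and 0.06 in the other groups. Across the 11096 genes it was 0.29 in SMARCB1 DMSO and between -0.09 and 0.08 in the other groups. These are correlations across genes of the same pair of libraries, and genes are not independent replicates. In SMARCB1 DMSO replicate 1 was above replicate 2 for 11 of 77 genes, with a median difference of -0.40. For the 30 genes with GC above 55% that median was -0.58, and for the 15 genes with GC at or below 45% it was -0.30. The SD of the differences was largest in GFP Dox, at 0.77, and lay between 0.34 and 0.41 in the other groups. With offsets for GC content and length in the fit, an alternative chosen after this was seen, 0 of the 77 genes were called in all 6 comparisons.

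**Figure D5:**
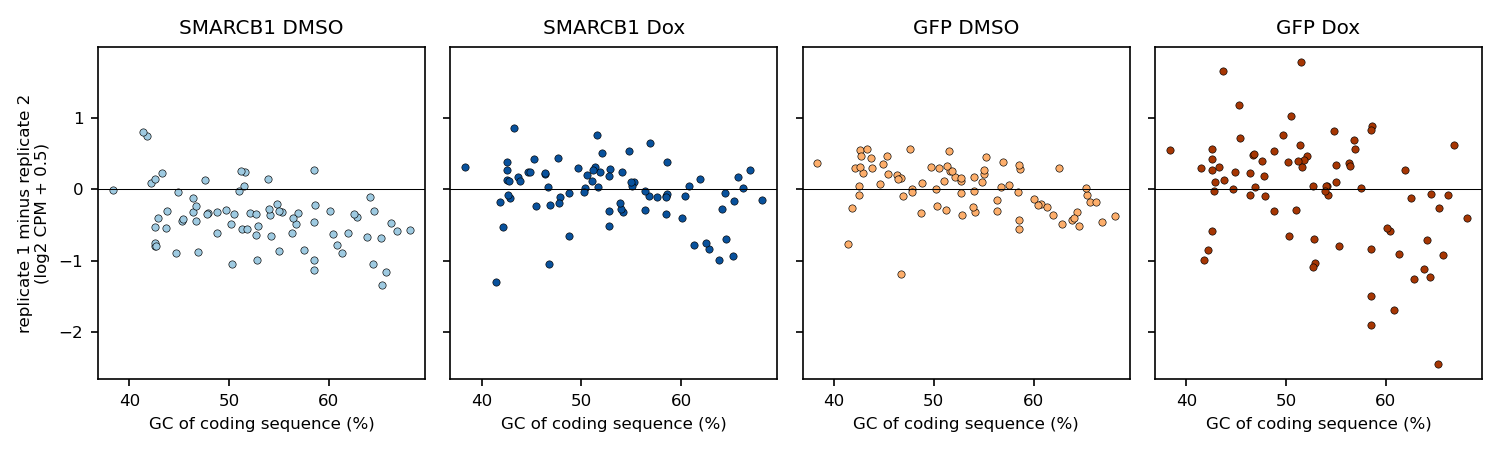
Replicate 1 minus replicate 2 (log2 of TMM-scaled CPM plus 0.5) against the GC content of the coding sequence for the 77 tested genes, 1 panel per group. Points slope downward in each panel, most of SMARCB1 DMSO lies under 0, and GFP Dox has the widest scatter.

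Genes that work with the mitochondrial ribosome were counted from lists. Of 25 assembly factors 24 were tested and 0 were called in any of the 6 comparisons, as were 0 of 14 mitochondrial translation factors, 0 of 4 mitoribosomal proteins outside the symbol rule (PTCD3, CHCHD1, AURKAIP1 and GADD45GIP1) and 0 of the 13 proteins encoded by mitochondrial DNA. Of all tested genes 0.018% were called in SMARCB1 Dox against SMARCB1 DMSO and 0.0% in the other comparisons of Dox with DMSO. Between the lines 4.97% were called under DMSO and 6.08% under Dox. With such shares, 0 calls in lists this short tells little about them. In SMARCB1 Dox against SMARCB1 DMSO these lists had median log2 fold changes of -0.04, -0.04, -0.01 and -0.08. Among 10 regulators of transcription of mitochondrial and mitoribosomal genes, 1 was called between the lines under DMSO, against 4.97% of all tested genes. It was PPARGC1B, a coactivator of mitochondrial gene programs, which was higher in SMARCB1 DMSO than in GFP DMSO. PPARGC1B stood at 35.4 and 53.6 CPM compared with 15.2 and 19.6 CPM, a log2 fold change of 1.44 ± 0.33 (SE; edgeR's quasi-likelihood test, adjusted p 0.016). Under Dox PPARGC1B was not called between the lines, at 29.8 and 29.1 CPM in SMARCB1 Dox and 25.8 and 17.7 CPM in GFP Dox, a log2 fold change of 0.28 ± 0.33 (SE). The difference between its Dox effects in the lines was -1.16 ± 0.46 (SE; edgeR's quasi-likelihood test, adjusted p 0.981).

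Of 18 genes listed for the mitochondrial stress response 0 were called under Dox in either line. ATF4, a transcription factor on that list, was at 272 and 151 CPM in SMARCB1 DMSO and 329 and 395 CPM in SMARCB1 Dox. The log2 fold change of ATF4 was 0.68 ± 0.29 (SE; edgeR's quasi-likelihood test, adjusted p 0.925). GFP DMSO held 191 and 207 CPM of ATF4, so under DMSO its libraries overlapped between the lines. TRIB3 and GDF15, targets of ATF4, were the 2 of 18 called between the lines under DMSO, against 4.97% of all tested genes. Whether mitochondrial stress or something else set these 2 genes apart was not tested. By edgeR's quasi-likelihood test TRIB3 was at 2.09 ± 0.29 (SE) with an adjusted p of 0.000299 and GDF15 at 1.01 ± 0.27 with 0.0418. Of the 18 genes 14 were higher in the SMARCB1 line under DMSO and 14 under Dox, against 51.5% and 49.1% of all genes. At an unadjusted p under 0.05 there were 5 and 9 in this order, against 13.9% and 18.7%. TRIB3 was at 36.1 and 37.0 CPM in SMARCB1 DMSO and 7.50 and 10.5 CPM in GFP DMSO. GDF15 was at 35.6 and 29.6 CPM compared with 16.7 and 17.2 CPM. Under Dox the TRIB3 difference between the lines was 2.07 ± 0.30, the 1 called of the 18, against 6.08% of all tested genes. That of GDF15, at 30.4 and 40.6 CPM in SMARCB1 Dox and 19.3 and 24.0 CPM in GFP Dox, was 0.59 ± 0.27 (SE) and was not called (edgeR's quasi-likelihood test, adjusted p 0.259).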

How the data were processed

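The authors captured translating ribosomes with RiboLace, aligned footprints with STAR to hg38 and counted them with HTSeq (intersection-strict, coding sequence, GENCODE annotation 42). The deposited values are raw counts per gene and library, without normalization. Trimming and strand option are not given in the sources used here. The 5 HTSeq summary entries per file were left out, and of uniquely aligned reads 52.8% to 61.8% fell on genes. RNA-seq was not analysed here, so occupancy and not translation efficiency is described, and fewer transcripts and fewer ribosomes per transcript cannot be told apart.

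Symbols and positions came from GENCODE annotation 44 (hg38) by versionless ID, and 311 IDs had no symbol. Genes were filtered with filterByExpr by group, leaving 11097, scaled by TMM, and fitted with edgeR 4.0.16 (glmQLFit, glmQLFTest, R 4.3.3) over all 8 libraries with 1 term per group. Calls needed a Benjamini-Hochberg adjusted p below 0.05 over all tested genes and a fold change above 2. SEs follow from the quasi-likelihood F statistic. DESeq2 1.42.0 was an alternative. MRPL30 and MRPS17, without counts, were not tested. Of the 79 genes, 73 had at least 10 counts in every library and 57 at least 100. Named genes were, per comparison and direction, the 3 with the smallest p, the 3 highest and lowest levels per kilobase in each subunit, genes under 10 counts somewhere and a list of roles. Genes and lists were chosen with earlier results of these data known. With 200 genes changed in simulated counts, edgeR recovered 90% of 4-fold and 23% of 2-fold changes for SMARCB1 Dox against SMARCB1 DMSO (10941 genes). All 200 changes were upward, and the simulated libraries held no differences by GC content or coding length. Recovery in the measured libraries may therefore be lower and was not tested. Replicates differed by more than sampling noise (chi-square per degree of freedom 14.8 to 46.0).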

Additional observations from a re-analysis of the deposited data

Results flagged for a closer look

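Reads that lie wholly on coding sequence shared by more than 1 gene belong to no gene in the counts and entered no comparison. They made up 1.29% of uniquely aligned reads in the library with the lowest share and 1.74% in that with the highest. They drew attention because they are a signal outside the counts per gene, and 12 of the 79 mitoribosomal genes share coding bases with another gene, 7 of them on the same strand. How many of these reads lie on mitoribosomal genes was not tested.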

How the results depend on the processing

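The count of 0 called mitoribosomal genes was the same in all 6 comparisons with DESeq2's size factors, library size only, DESeq2's Wald test, no filter, at least 10 counts in every library, robust quasi-likelihood, only the groups compared (run for the 4 comparisons of 2 groups), and GC and length offsets. It changed only when GFP Dox replicate 2 was left out. Leaving out 1 library each gave 0 to 1 called genes for GFP Dox against GFP DMSO, 0 to 1 for the difference of the Dox effects and 0 to 5 for SMARCB1 Dox against GFP Dox, and 0 elsewhere; the lone library of a group is then assumed to vary like the others. Of 599 recomputed values of named genes, 590 kept direction and side of the threshold, 5 became called and 4 reversed. The log2 fold changes that reversed ranged, with 1 library left out, from -0.20 to 0.99 for MRPL35 and from -0.38 to 1.28 for MRPL50 in GFP Dox against GFP DMSO, from -1.36 to 0.30 for MRPL50 in SMARCB1 Dox against GFP Dox (reversed without GFP Dox replicate 1), and from -0.83 to 0.022 for MRPL17 in SMARCB1 DMSO against GFP DMSO (reversed without SMARCB1 DMSO replicate 1). Over all genes, SMARCB1 Dox against SMARCB1 DMSO had 2 calls, and from 1 to 46 under the alternatives, and without GFP Dox replicate 2 there were 147 calls instead of 0 for Dox in the GFP line, 105 instead of 0 for the difference of the Dox effects and 1372 instead of 675 between the lines under Dox; the counts between the lines ranged from 288 to 688 under DMSO and from 348 under Dox. With library size only, the median of all genes for the difference between the lines was 0.16 instead of -0.03 and that of the mitoribosomal genes 0.13 instead of -0.06. The median of the mitoribosomal genes in SMARCB1 Dox against SMARCB1 DMSO ranged from -0.27 to 0.13 when a SMARCB1 DMSO library was left out. The summed small subunit CPM in GFP Dox was 2571 with TMM-scaled totals instead of 2448, and the small subunit median per kilobase was 117 with the longest coding sequence instead of 103. The causes were not tested. Deviations of same-numbered libraries correlated at 0.046 to 0.251 over 6 pairs of groups. All were positive, and only the pair of GFP Dox and SMARCB1 DMSO lay below 0.1. No source names a shared batch, so the numbers were not taken as pairing. An effect of replicate number shared by the groups was not tested. With the replicate block 0 mitoribosomal genes were called in each comparison. With 2 libraries per group, simulated 2-fold changes were mostly missed, and genes under 10 counts gave wide intervals.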
